A study of Rattus norvegicus with 24 samples.

Results

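The genes described are those of the voltage-gated sodium and calcium channels, taken as every non-control probe whose gene name in the scanner files begins with Scn or Cacn followed by a digit, a, b or g. They came to 39 genes measured by 55 probes, of 35527 gene and transcript names and 41012 probes on the array. Brain tissue came from male Wistar rats, 10 weeks old, that had received an injection into the abdomen of saline (3 of the 9 rats) or of MK-801 at 0.16 mg per kg (high dose) or 0.08 mg per kg (low dose), with brains taken 40 min later. MK-801 is a channel blocker of NMDA receptors, which are gated by glutamate. The study asked how gene expression changes in the cerebral cortex, hippocampus, amygdala, ventral striatum, hypothalamus and midbrain after this single injection. On each of 24 two-colour arrays, treated and saline RNA of the same region were compared, as 12 dye swaps of 2 arrays with exchanged dyes, 1 swap for each region and dose. No group differs in genotype, the tissue was whole dissected regions, and the labels do not state which animals an array stands for or whether RNA was pooled. Replicates may therefore be technical. In such bulk tissue, fewer cells of a type and less RNA per cell cannot be told apart.

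Voltage-gated sodium channels open when the membrane depolarises and carry the upstroke of the action potential, and voltage-gated calcium channels turn depolarisation into calcium entry that drives transmitter release, dendritic responses and gene expression. The pore of both is a single large protein, called alpha in sodium channels and alpha1 in calcium channels. Sodium channel beta subunits are single-span proteins that change gating and cell adhesion. Calcium channel beta and alpha2delta subunits bring alpha1 to the membrane, and most of the proteins named gamma are TARPs, which accompany AMPA receptors instead. NMDA receptors are themselves a route of calcium entry beside these channels.

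A probe counted as above background when, on 12 or more of the 24 arrays, the scanner software flagged both of its colours as well above background. This held for 46 of the 55 probes and 33 of the 39 genes: 8 of 10 sodium channel alpha genes, 4 of 4 sodium channel beta genes, 3 of 4 L-type alpha1 genes, 3 of 3 alpha1 genes of the P/Q, N and R types, 3 of 3 T-type genes, 3 of 3 alpha2delta genes, 4 of 4 calcium channel beta genes and 5 of 8 gamma genes. The 6 genes that did not reach it were Cacna1f, the L-type channel of the retina, Cacng4, Cacng5 and Cacng6, Scn4a, the channel of skeletal muscle, and Scn7a. In 12 genes more than 1 probe was present, and the brightest probe on average stands for the gene. Levels are log2 intensities of the saline channel and compare regions within a probe, never probes with each other.

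Cacna1e, the alpha1 subunit of R-type channels, had 4 probes, and they are shown because they gave different regional orders. Scn4b, the sodium channel beta4 subunit, had the widest regional range, and its less bright probe is shown beside them. Coordinates are those of assembly rn3 in the scanner files, and all 4 Cacna1e probes lie on chromosome 13 in the gene's minus direction. Letters are in lower case, and capitals mark a stop codon that closes the only open reading frame of a probe.
Cacna1e A_44_P545717, chr13:69697907-69697966: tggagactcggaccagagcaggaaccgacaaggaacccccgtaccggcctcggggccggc
Cacna1e A_44_P236697, chr13:69466895-69466954: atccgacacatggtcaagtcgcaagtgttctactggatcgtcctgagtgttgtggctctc
Cacna1e A_44_P297167, chr13:69386691-69386745: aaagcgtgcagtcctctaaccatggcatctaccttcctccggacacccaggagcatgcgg
Cacna1e A_44_P240646, chr13:69381412-69381471: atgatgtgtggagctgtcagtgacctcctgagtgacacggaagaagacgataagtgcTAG
Scn4b A_43_P10334, chr8:48109084-48109143: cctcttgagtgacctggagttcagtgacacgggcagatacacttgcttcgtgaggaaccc
The first Cacna1e probe listed lies farthest upstream and holds 70% G and C, and the last one ends in the stop codon. Probe A_44_P297167 is the brightest of the 4, so it represents the gene. Its listed position spans 55 of its 60 bases, and the files describe it from a cDNA of an isoform called alpha1E7, whereas the other 3 are described from the gene's reference transcript.

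In saline, the channel genes ranged more widely between regions than all probes did, by the median. The median distance between the highest and the lowest region was 1.20 log2 units over the 40 member probes above background with all 12 swap values, against 0.74 over all 24617 such probes. The median gap between the 2 dye swaps of a region was 0.17 for the members and 0.18 for all probes. A region was said to lead when both of its swap values lay above both values of every other region and the probe was well above background there in the saline channel on at least 3 of 4 arrays. By that rule 23 of the 40 member probes, from 18 of 28 genes, had a leading region, beside 41.1% of all probes. Both values of a region may come from the same saline RNA, and slides were not shared between regions, so region and slide cannot be told apart.

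**Figure D1:**
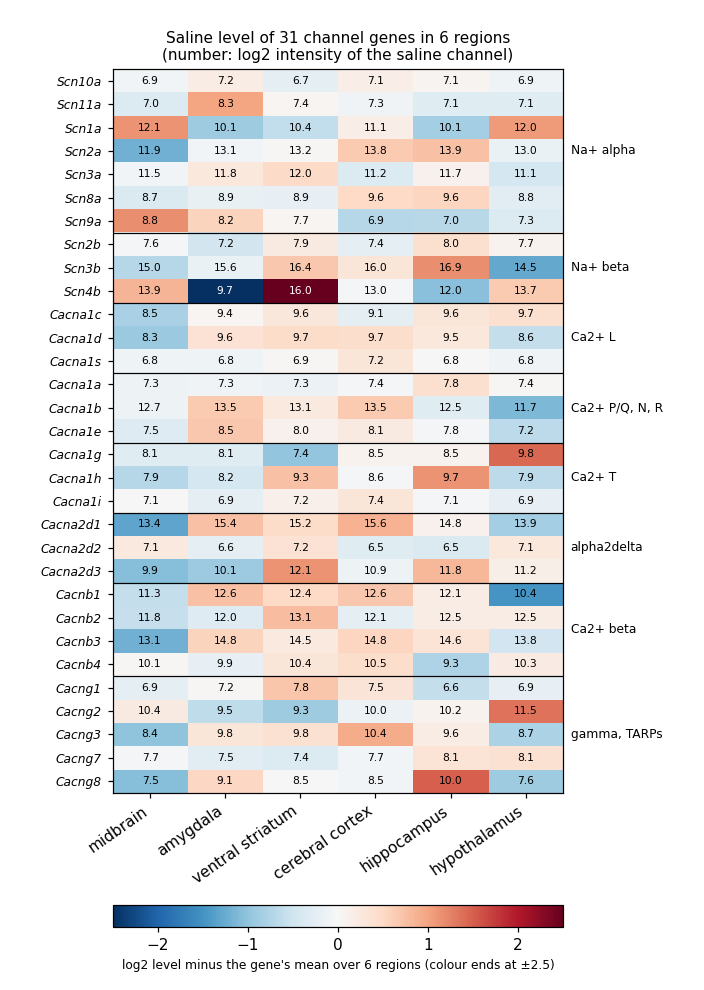
Saline levels of 31 of the 33 channel genes above background (rows, grouped by subunit class) in the 6 regions (columns). Numbers are log2 intensities and colour is the difference from the gene's own mean over regions. The widest row is that of Scn4b, from 9.72 in the amygdala to 15.96 in the ventral striatum, and 13 of the 33 genes had their lowest level in the midbrain.

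Over the 33 genes, the midbrain held the lowest level of 13 and the highest of only 2. The amygdala, ventral striatum and hippocampus each held the highest level of 7 genes, and the cortex and hypothalamus of 5 each. In the midbrain 8 of 33 genes lay above their own mean over regions, in the ventral striatum 23. Over the 7 oligodendrocyte markers with a level in every region the median was 13.70 in the hypothalamus, 13.25 in the midbrain and 10.69 to 12.74 elsewhere, and over the 8 neuron markers it was 14.44 in the midbrain against 13.64 to 14.38. Single neuron markers went both ways. Nefl, Nefm and Stmn2 were highest in the midbrain (14.37, 16.50 and 14.52), and Syt1 and Rbfox3 were lowest there (10.17 and 12.38). Snap25, Tubb3 and Eno2 had neither their highest nor their lowest level there. The part of cell composition in these levels was not tested.

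Among the pore-forming sodium channel genes, Scn1a, the channel prominent in fast-firing inhibitory neurons, had 12.10 in the midbrain and 12.04 in the hypothalamus. These neighbours did not differ beyond the spread of their swaps (12.21 and 11.996 against 11.96 and 12.12), and the cortex followed with 11.15. The amygdala, hippocampus and ventral striatum had 10.09, 10.12 and 10.37, which makes a range of 2.02 log2 units or 4.05-fold. Scn2a, the main channel of excitatory neurons, listed as Scn2a1 in the files, ran the other way. Its level was 11.93 in the midbrain, below every other region, and 13.88 and 13.80 in the hippocampus and cortex, which overlapped. A further Scn2a probe, A_44_P100365, was also highest in the hippocampus, and A_44_P121187 was highest in the cortex. The 3 Scn2a probes each had their 2 lowest levels in the midbrain and hypothalamus.

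Scn8a, the channel that dominates the axon initial segment and nodes of Ranvier, was highest in the hippocampus (9.61) and cortex (9.56), which overlapped, and lay between 8.70 and 8.89 in the other regions. Scn3a, abundant in the developing brain, ran from 11.12 in the hypothalamus to 12.03 in the ventral striatum, a range of 0.91. Channels better known from peripheral neurons were measured too. Scn11a, a channel of pain-sensing neurons, led in the amygdala with 8.35 against 7.02 to 7.41 elsewhere. The amygdala samples stood apart in this gene, by 0.94 log2 units from the next region. Scn10a, also of pain-sensing neurons, ranged over 0.43 log2 units only.

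The 2 probes of Scn9a, a further channel of pain-sensing and hypothalamic neurons, disagreed. The brighter one led in the midbrain with 8.81 and had 6.94 in the cortex, whereas the other led in the hippocampus with 7.63 and had its lowest level, 6.96, in the midbrain. Scn7a encodes the sodium sensor Nax, an alpha-type protein of the circumventricular organs and glia that does not open with voltage. Its probe was well above background in all 4 saline readings of the hypothalamus (swaps 9.11 and 9.54) and of the midbrain (8.63 and 8.72). The other regions had levels of 6.25 to 6.62. There the probe was well above background in 2 of 4 readings of the ventral striatum and 1 of the amygdala. In the cortex and hippocampus it was so in 0. The hypothalamus thus stood at least 8.34-fold above the cortex, the lowest region. Sodium channel alpha genes resemble each other in sequence, and cross-hybridisation between them was not tested.

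The sodium channel beta genes held the widest range of all members. Scn4b, whose intracellular tail is known for the resurgent current of fast-firing neurons, had swap values of 15.72 and 16.19 in the ventral striatum, 14.02 and 13.80 in the midbrain, 13.82 and 13.59 in the hypothalamus, 13.12 and 12.90 in the cortex, 12.01 and 12.01 in the hippocampus and 9.48 and 9.96 in the amygdala. Only the midbrain and hypothalamus overlapped. The ventral striatum was 6.25 log2 units, or 75.8-fold, above the amygdala. The less bright probe, shown above, gave the same first and last region, with 8.99 and 8.68 in the ventral striatum against 6.26 and 6.22 in the amygdala, where it was not well above background, and the ratio by that probe was at least 4.97-fold. Scn4b thus shared its highest region with the 4 striatal check genes, among them Drd1, Adora2a and Penk, whose median was 13.77 in the ventral striatum and 8.003 to 9.06 in the other regions. The rest of the order was not shared: the amygdala, lowest in Scn4b, was second in Drd1 (7.48) and Penk (13.65), and the midbrain, second in Scn4b, was lowest in Drd1 (6.43).

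Scn3b, the beta3 subunit, was highest in the hippocampus (16.88 and 16.90) and lowest in the hypothalamus (14.42 and 14.50), with 11 swap values. Every neighbouring pair of regions was separated in this gene. Scn2b, the beta2 subunit linked to alpha by a disulfide bond, led in the hippocampus with 8.04 and had its lowest level, 7.18, in the amygdala.

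**Figure D2:**
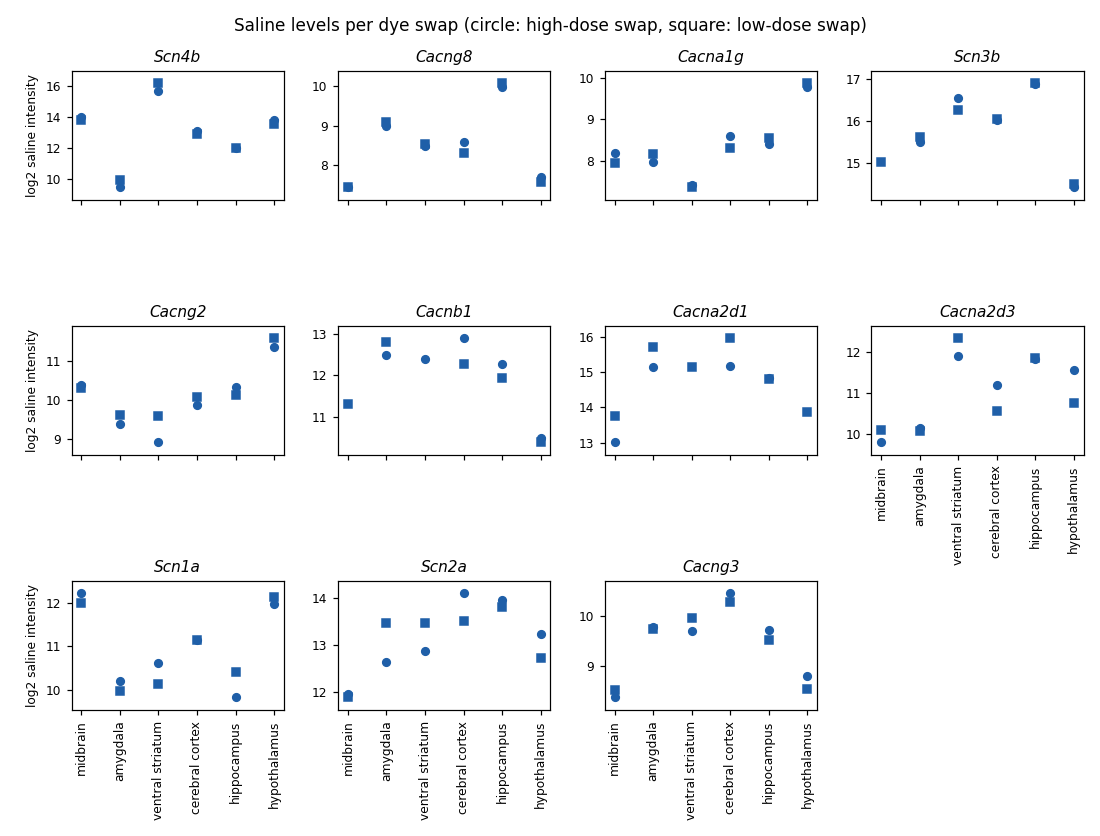
Saline log2 intensity (y axis) of 11 of the 12 genes with the widest regional range, in 6 regions (x axis). Each circle is the dye swap of the high dose and each square that of the low dose, and all points shown were in regions where the probe was well above background in the saline channel. The 2 points of a region lie close together for Cacng8 and Cacna1g and up to 0.83 apart for Scn2a.

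Calcium channel alpha1 genes are described here by type. Cacna1g, the T-type channel Cav3.1 of thalamic burst firing, led in the hypothalamus samples with 9.77 and 9.87, and its lowest level was in the ventral striatum with 7.41 and 7.36, a ratio of 5.40. Cacna1h, the T-type channel Cav3.2, led in the hippocampus (9.72), followed by the ventral striatum (9.33), and was lowest in the midbrain (7.89). Cacna1i, the T-type channel Cav3.3, was highest in the cortex (7.40) and lowest in the amygdala (6.86). The second Cacna1i probe was also highest in the cortex (7.20), without leading there, and lowest in the hypothalamus (6.48). By their brightest probes, the 3 T-type genes thus led in 3 different regions. The hypothalamus samples were also highest in genes of the thalamus, a list chosen after the data were seen: Prkcd, a thalamic relay marker, stood at 15.86 there and at 12.71 or less in the other regions, and the median of the 6 listed genes above background was 10.34 against 7.27 to 7.77. Whether thalamic tissue was part of these samples was not tested.

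The L-type genes Cacna1c (Cav1.2) and Cacna1d (Cav1.3) were both lowest in the midbrain by their brightest probes. Cacna1c ran from 8.51 there to 9.71 in the hypothalamus, which overlapped with the hippocampus (9.61) and ventral striatum (9.60). Cacna1d ran from 8.29 to 9.69 in the ventral striatum, with no separation among the ventral striatum, cortex, amygdala and hippocampus. Of its other probes, A_44_P365462 was also lowest in the midbrain, without separation between regions, and A_44_P557428 was lowest in the amygdala (7.12) and highest in the hypothalamus (7.64). Cacna1s, the channel of skeletal muscle, was above background at a low level and led in the cortex by 0.27 log2 units. Cacna1a, the P/Q-type channel of presynaptic terminals, led in the hippocampus with 7.82 against 7.27 to 7.44. Cacna1b, the N-type channel, was highest in the amygdala (13.51) and cortex (13.50) and lowest in the hypothalamus (11.73), while its weaker probe ranged over 0.26 log2 units and was highest in the hippocampus.

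**Figure D3:**
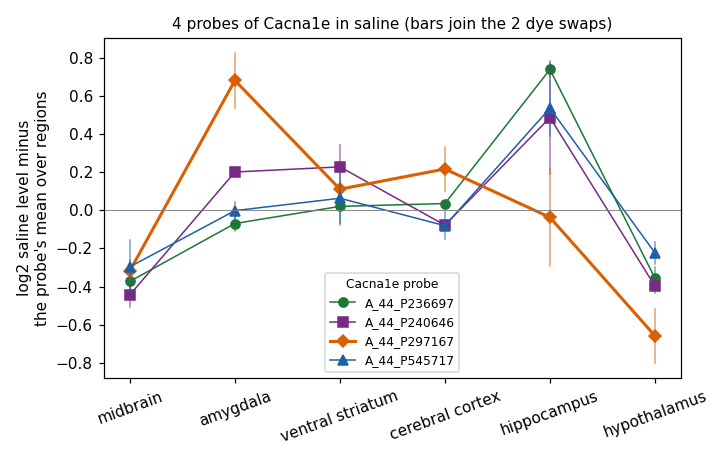
Saline level of the 4 Cacna1e probes in the 6 regions (x axis), each minus its own mean over regions (y axis, log2 units). Bars join the 2 dye swaps. Probe A_44_P297167 peaks in the amygdala and the other 3 in the hippocampus.

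The regional order of Cacna1e differed by probe. Probe A_44_P297167 led in the amygdala with 8.68 and 8.39, against 8.07 and 7.56 in the hippocampus. The other 3 were highest in the hippocampus, with 8.09 and 8.16 for A_44_P236697, 8.13 and 8.43 for A_44_P545717, and 7.74 and 8.34 for A_44_P240646, whose first value overlapped with those of the ventral striatum and amygdala. All 4 were low in the midbrain and hypothalamus. Among the 9 genes with several probes above background, the brightest probe and another shared their highest region in 4 of 13 pairs.

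The auxiliary calcium channel subunits were mostly low in the midbrain. Cacna2d1, the alpha2delta subunit bound by gabapentin, had 15.57 in the cortex, 15.43 in the amygdala and 15.16 in the ventral striatum, which were not separated, and 13.39 in the midbrain, with 10 swap values in all. Cacna2d3 led in the ventral striatum (12.12) and was lowest in the midbrain (9.94), a ratio of 4.52, with swaps up to 0.80 apart. Cacna2d2 was highest in the ventral striatum (7.20), hypothalamus (7.11) and midbrain (7.10), which overlapped. The midbrain was thus low for 2 of the 3 alpha2delta genes.

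Each of the 4 calcium channel beta genes ranged over at least 1.23 log2 units. Cacnb1 was highest in the amygdala (12.64), cortex (12.58) and ventral striatum (12.40), without separation, and lowest in the hypothalamus (10.43), with 10 swap values. Cacnb3, the beta subunit often paired with N-type channels, had a like upper end, amygdala 14.82 and cortex 14.80, and was lowest in the midbrain (13.07). Cacnb2 was highest in the ventral striatum (13.14) by its brightest probe. Its second probe had 8.56 in the hypothalamus and 8.54 in the ventral striatum, which overlapped. Cacnb4, whose loss causes the lethargic mouse, led in the cortex (10.51) and was lowest in the hippocampus (9.29) by its brightest probe. Its second probe was highest in the cortex (8.43) and lowest in the midbrain (7.75), without separation between neighbouring regions.

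Among the gamma genes, 4 of the 5 above background had a leading region, and those of the TARPs differed. Cacng8 (TARP gamma-8), known for its abundance in the hippocampus, led there with 9.98 and 10.08 and was lowest in the midbrain with 7.45 and 7.46, a ratio of 5.96. Cacng3 (gamma-3) led in the cortex with 10.37, and the midbrain was again lowest with 8.43. Cacng2 (stargazin, gamma-2), abundant in cerebellum and thalamus, led in the hypothalamus samples with 11.48, followed by the midbrain with 10.35, and was lowest in the ventral striatum with 9.25. The high thalamic gene levels of the hypothalamus samples stand beside this value too. Cacng7 was highest in the hypothalamus and hippocampus (8.15 and 8.11, overlapping). Cacng1, the gamma subunit of the skeletal muscle channel, led in the ventral striatum with 7.83 against 6.56 to 7.47.

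None of the 55 member probes passed the test of MK-801 against saline across regions. The test was limma on 6 regional log2 ratios, MK-801 over saline, with adjustment over all probes tested and a call at an adjusted p under 0.05. Over both doses 0 of 55 members were called, 5 of them at an unadjusted p under 0.05 (2 higher, 3 lower), where 1.62% of all 40589 probes were called and 11.8% had such a p. At the high dose 0 of 55 were called and 0 had an unadjusted p under 0.05, beside 1.18% and 10.2% of all probes. At the low dose 0 were called and 7 had an unadjusted p under 0.05 (1 higher, 6 lower), beside 1.64% and 11.1%. For the difference between high and low dose 0 were called and 2 had an unadjusted p under 0.05, beside 0.806% and 9%. The spread behind these p-values is that between regions of the same rats, not between rats. The ratios leave out the spread between saline rats, whom both doses share. With 1 array number left out, 1 dye orientation was left in the swaps it belonged to. Then 4 to 10 members were called over both doses (array numbers 1 and 4), beside 10.4% to 14.4% of all probes. At the high dose 6 and 7 were called (numbers 1 and 2), beside 19.2% and 19.7%, and at the low dose 15 and 12 (numbers 3 and 4), beside 24.1% and 21.3%. Between doses 5 to 10 were called (numbers 2 and 3), beside 13.4% to 20.5%.

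The intervals around the means over the 6 regions reflect how far regions differed, not how far animals did. An error common to the saline side would not widen them, so they set no limit on an effect of MK-801 across rats. Over both doses the 95% intervals of the 46 probes above background lay between -0.12 and 0.15 on the log2 scale, that is between 0.922-fold and 1.11-fold. At the high dose they lay between 0.88-fold and 1.09-fold, and at the low dose between 0.891-fold and 1.15-fold. Most means were slightly below 0: 33 of 46 over both doses, with a median of -0.017 against -3e-04 for all probes above background, of which 49.7% were above 0. In 2 of the 40 members with all values, the 6 regions had 1 direction, beside 9.01% of all such probes.

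**Figure D4:**
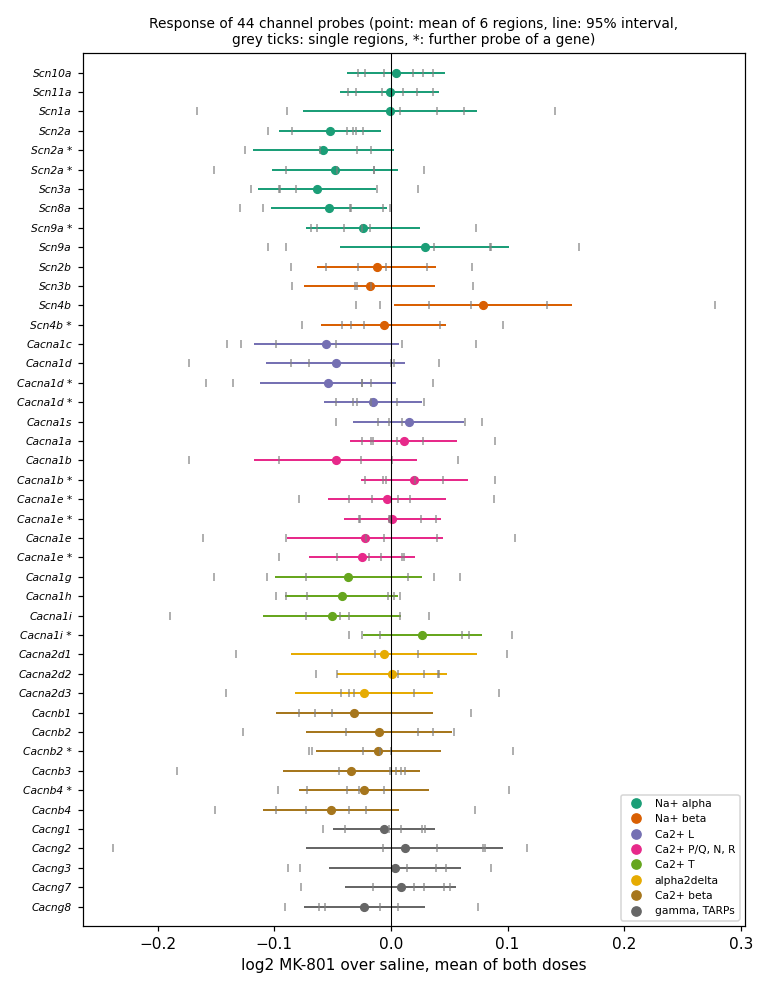
Log2 ratio of MK-801 to saline (x axis), mean of both doses, for 44 of the 46 channel probes above background (rows, coloured by subunit class). Points are means over regions, lines are 95% intervals from limma, and grey ticks are single regions. The means lie between -0.063 and 0.079, and the tick farthest from 0 is Scn4b in the amygdala.

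By role, 9 of 11 sodium channel alpha probes had a mean below 0 over both doses (median -0.027), and 3 of the 5 probes of the beta genes. All 6 probes of the calcium channel beta genes were below 0 (-0.051 to -0.010), as were 4 of 5 L-type probes (median -0.048) and 3 of 4 T-type probes (median -0.039). The P/Q, N and R type, alpha2delta and gamma probes had medians of -0.0035, -0.0059 and 0.0033. No class held a called probe, so these are positions within the spread.

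Among probes above background with values in all 6 regions, Scn4b, Scn3a, Cacna1c, Cacna1d, Scn8a and Scn2a had the 6 largest means over both doses. Scn4b had -0.0094 in the midbrain, 0.28 in the amygdala, 0.069 in the ventral striatum, 0.13 in the cortex, -0.030 in the hippocampus and 0.032 in the hypothalamus, a mean of 0.079 ± 0.11 (SD, n = 6 regions, limma adjusted p = 0.401). The amygdala value alone made most of this mean. Scn2a was below 0 in all 6 regions, from -0.11 in the midbrain to -0.024 in the amygdala, a mean of -0.052 ± 0.034 (n = 6, limma adjusted p = 0.307). Without array number 4 the mean was -0.086 and was called (limma adjusted p = 0.0308). Its further probes gave -0.058, without a value in every region, and -0.048. The last of these, A_44_P121187, was called on both sides of 0 with an array number left out, at 0.13 and 0.15 without numbers 1 and 3 and at -0.23 and -0.24 without numbers 2 and 4 (limma adjusted p = 0.000312 to 0.0218).

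Scn8a was likewise below 0 in all 6 regions, with -0.13 in the amygdala and -0.11 in the hippocampus at one end and -0.0010 in the hypothalamus at the other, a mean of -0.053 ± 0.054 (n = 6, limma adjusted p = 0.382). Scn3a was lowest in the hippocampus with -0.12 and above 0 in the midbrain with 0.023, a mean of -0.063 ± 0.056 (n = 6, limma adjusted p = 0.281). Cacna1c had -0.14 in the midbrain, -0.13 in the amygdala and 0.073 in the hypothalamus, a mean of -0.055 ± 0.084 (n = 6, limma adjusted p = 0.487). On the arrays with saline in Cy3 alone its value was 0.075, and on those with saline in Cy5 it was -0.19. Cacna1d, by its brightest probe, had -0.17 in the hippocampus, 0.003 in the midbrain and 0.041 in the ventral striatum, a mean of -0.048 ± 0.078 (n = 6, limma adjusted p = 0.548). By its second probe it had -0.16 in the midbrain, -0.14 in the amygdala and 0.036 in the ventral striatum, a mean of -0.054 ± 0.076 (n = 6, limma adjusted p = 0.467).

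The exchange of dyes mattered for these genes. Averaged over regions and doses, Cacng2 had -0.33 on the arrays with saline in Cy3 and 0.35 on those with saline in Cy5, and a mean of 0.011. Cacng8 had -0.27 and 0.22. These opposite values cancelled in the means above. Over all members above background the dye effect had a median size of 0.057, against 0.071 for all probes, while the median size of the change over both doses was 0.023. Cacna1c was printed at 10 spots of each array, and the SD of its log2 ratio among spots was 0.061 to 0.157, with a median of 0.081.

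In single regions, 1 of 55 members was called, Scn4b in the amygdala, beside 2.08% of all 40582 probes called in at least 1 region (limma on 12 dye-swap values with a coefficient per region, adjusted within the region). Its 4 arrays there read 0.093 and 0.27 at the high dose and 0.29 and 0.46 at the low dose, all above 0. The mean was 0.28 ± 0.050 (SE), or 1.21-fold (limma adjusted p = 0.0271). The spread in this fit is that between doses. With single array numbers left out the value was 0.23 to 0.32 and was not called (limma adjusted p = 0.136 to 0.681). The call was also lost with median centring in place of loess (0.25, limma adjusted p = 0.40), with the scanner's own log ratio (0.29, 0.0967), with the series' value table (0.30, 0.197) and within the scan day of midbrain and amygdala alone (0.28, 0.231).

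The second Scn4b probe, which was not well above background in amygdala saline RNA, gave 0.025 at the high dose and 0.17 at the low dose there. Striatal genes also lay off 0 in these samples. All 4 striatal check genes were above 0 at both doses in the amygdala, with a median of 0.18 over both doses (0.077 to 0.49), and all 4 were below 0 at both doses in the hypothalamus, with a median of -0.33. In the amygdala Adora2a, the adenosine receptor of striatal output neurons, had 0.49 at both doses, and Drd1, a dopamine receptor of such neurons, had 0.11 and 0.12. Of 10 striatal genes on a list lengthened after the data were seen, 8 were above 0 at both doses in the amygdala, 0 below, and 8 were below 0 at both doses in the hypothalamus. In amygdala saline RNA these 10 genes had levels from 7.04 to 14.10. On the same scale Cacna1f, whose probe was not above background, had 6.23 there. Scn4b itself had -0.015 and 0.080 in the hypothalamus samples. The choroid plexus markers moved further in the amygdala samples, with 5 of 5 above 0 at both doses and a median of 0.55 (0.53 to 0.76), at saline levels of 7.96 to 15.24. The part of striatal or choroid plexus tissue in the amygdala value of Scn4b was not tested.

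**Figure D5:**
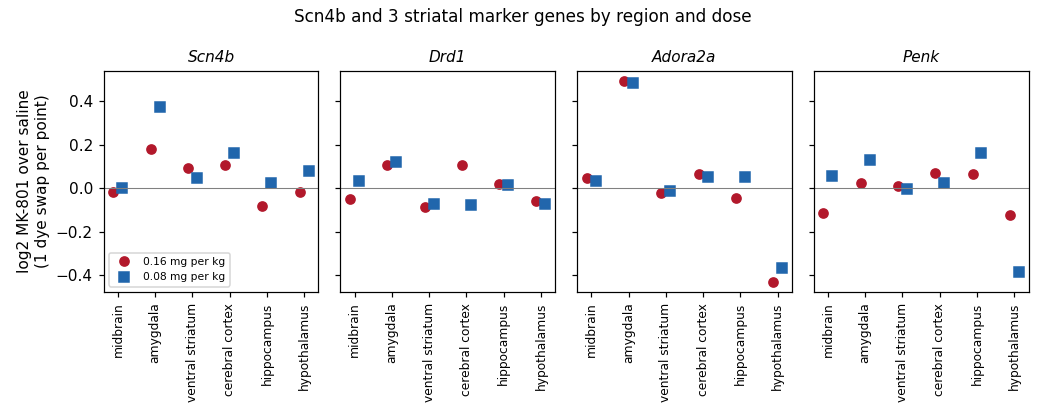
Log2 ratio of MK-801 to saline (y axis) of Scn4b and 3 of the 4 striatal check genes in the 6 regions (x axis). Circles are the 0.16 mg per kg and squares the 0.08 mg per kg dye swap, with 1 value each. Scn4b and the 3 check genes shown lie above 0 at both doses in the amygdala, and the check genes lie below 0 at both doses in the hypothalamus.

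Next in order was Cacnb3 in the amygdala, with -0.19 and -0.17 at the high and low dose, a mean of -0.18 (limma adjusted p = 0.0549). It was called under some other settings given in the closing section. Cacng2 in the amygdala had -0.14 and -0.33 (limma adjusted p = 0.106). In the midbrain 22 of 43 members were below 0 at both doses and 6 above. The hippocampus was close to this with 20 of 46 below and 5 above, and the amygdala with 19 of 43 below and 8 above. The ventral striatum had 13 of 44 below and 7 above, and the cortex 17 of 46 below and 13 above. The shares over all probes are not given here. Cacna1g had -0.15 and -0.16 in the midbrain (limma adjusted p = 0.118). In these midbrain samples 5 of 6 thalamic genes of the list chosen after the data were seen were also below 0 at both doses, Prkcd by -0.89 and -1.18. The oligodendrocyte markers were higher there, with 7 of 8 above 0 at both doses and a median of 0.20. This was not particular to the midbrain: 8 of 8 were above 0 at both doses in the ventral striatum (median 0.16) and 8 of 9 in the cortex (0.12). In the hippocampus it was 4 of 9, in the amygdala 3 of 9 and in the hypothalamus 1 of 6. The part of tissue composition in the midbrain values was not tested. In the hypothalamus 8 of 45 members were below 0 at both doses and 16 above.

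The F test that the 6 regional responses are equal called 0 of 55 members, 13 of them at an unadjusted p under 0.05 (lowest limma adjusted p = 0.228, for Scn1a), beside 0.256% of all probes called and 11.5% at such a p. Scn1a ran from -0.17 in the hippocampus to 0.14 in the cortex, and Scn4b followed with an adjusted p of 0.252 (limma).

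Proteins that bind or regulate these channels were read from lists of 16 genes on the sodium channel side and 25 on the calcium channel side. Of all probes, 1.62% were called over both doses, 1.18% at the high dose, 1.64% at the low dose and 0.806% between doses. Of the 15 measured sodium channel partners, among them the ankyrins, neurofascin and the FGF homologous factors, 0 were called over both doses, at the high dose or between doses, and 1 was lower at the low dose. That gene was Rangrf, which promotes the surface delivery of sodium channels, with -0.13 ± 0.052 (n = 6, limma adjusted p = 0.03). Of the 21 calcium channel partners above background, among them RIM and syntaxin genes, 0 were called over both doses (20 tested) or at the high dose. At the low dose 1 of 21 was called, as lower, and between doses 1 of 20. Camk2a, a calcium-dependent kinase of excitatory synapses, differed between doses, with -0.10 at the high and 0.095 at the low dose (difference -0.20 ± 0.095, n = 6, limma adjusted p = 0.0262). The list medians over both doses were -0.006 and -0.014.

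Signal set the precision. Of the probes of an array, 55.2% to 78.5% were well above background in both colours, the SD of log2 ratios within an array was 0.136 to 0.246, and at most 8 spots were saturated, none of them of a channel gene. The labelled regions carried their markers in saline RNA for the ventral striatum (above) and the midbrain, where Th, the first enzyme of dopamine synthesis, had 13.82 against 9.10 or less. The hypothalamus was highest in Pmch, Oxt and Trh but not in Hcrt, which was highest in the cortex (8.77 against 8.45). Both hippocampal check genes, Wfs1 and Dsp, were highest there. In the cortex this held for Cux2 but not for Rorb, which was highest in the hypothalamus, and in the amygdala for Cyp26b1 and Etv1 but not for Rspo2 and Cdh9, which were highest in the hippocampus. Markers of cell types other than neurons were present in every region, and over both doses the oligodendrocyte markers had a median of 0.093 with 1 of 9 called.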

How the data were processed

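Per the file headers, the authors read the arrays with Agilent Feature Extraction 9.5.3.1, whose files give each spot's mean and background fluorescence intensity, flags and the log10 ratio of Cy5 to Cy3. The authors' deposited value table holds the same log10 ratio of processed signals (largest difference 0.00413), neither turned for dye swaps nor centred. With R 4.3.3 and limma 3.58.1, intensities were background corrected (normexp, offset 50), normalized within arrays by loess and turned into log2 ratios of MK-801 to saline. This log2 scale was not in the authors' files. Control and outlier spots were left out, spots of a probe averaged, and both arrays of a dye swap were required. Probes with at least 4 regional values were tested with lmFit and eBayes, with Benjamini-Hochberg adjustment over all probes. Saline levels came from the saline channel after Aquantile normalization, and figures from matplotlib 3.10.9. Fits were tested on simulated data. GRCr8 RefSeq served for names only (10735 probes by accession, 5577 by symbol, 3762 by synonym, 20938 with the file's name).

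Arrays of the same number share a dye orientation, and their deviations from the group means correlated (r 0.522 to 0.747), so the number is a pairing through the dye, tried as a block. Named were every called member and the 12 genes with the widest saline range. Also named were the 6 members of largest mean over both doses, among those above background with values in all 6 regions. Some named items are not reported here, though counts include them. Members and lists were chosen with earlier results of these data known. Alternatives covered background correction, normalization, filters, the prior, the block, arrays, regions and scan days. The number of arrays limits the precision.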

Additional observations from a re-analysis of the deposited data

How the results depend on the processing

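Over both doses, at the high dose, at the low dose and between doses, the count of called members was 0 under every alternative except those that left out an array number, which leave the affected dye swaps with 1 dye orientation; there it was 4 to 10, 6 to 7, 12 to 15 and 5 to 10 of 55, beside 10.4% to 14.4%, 19.2% to 19.7%, 21.3% to 24.1% and 13.4% to 20.5% of all probes. With the replicate block, that is single arrays with array number or dye orientation as a block, these counts were again 0, and 2 members were called in at least 1 region. That last count, 1 in the report, was 2 without background correction, with probes above background only and with 1 probe per gene, 5 with an intensity trend and robust prior, and 0 with median centring, the scanner's log ratio, the value table, without the amygdala and within each of the 3 scan days; without single array numbers it was 0 too. The added gene was Cacnb3 in the amygdala (-0.18, limma adjusted p 0.00929 to 0.0423); the robust prior also called Cacnb1 in the ventral striatum, Cacna1b in the hippocampus and Scn2a in the amygdala. No alternative called a member whose response differed between regions. Cacna1c over both doses was 0.0071 without replicate 2 and 0.0128 without replicate 4, on the other side of 0, and -0.12 and called without replicates 1 and 3. Cacna1d was 0.0058 within the scan day of ventral striatum and cortex. The count of probes with a leading region in saline was 17 to 27, and the highest region of the 12 named genes was the same under all 10 alternatives except for Cacnb1 (7 of 10) and Scn2a (6 of 10). Signal over background limits Scn7a and the second Scn4b probe to bounds.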
